A study of Mus musculus with 12 samples.

Results

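The enzymes of the lower part of glycolysis are described here in mouse skin, from aldolase to lactate dehydrogenase. They are the products of 10 genes taken by name: Aldoa, Aldoc, Tpi1, Gapdh, Pgk1, Pgam1, Eno1, Eno2, Pkm and Ldha. All 10 were found among the 23359 genes of the deposited table, and all 10 passed the filter on low values. Messenger RNA was sequenced from 12 skin samples of the inbred strain C3H/HeJ, in 4 groups of 3 libraries. The first group (T_20W) was 20-week fibrotic skin that had been given CD36highCD90+ fibroblasts, here called treated skin. The others were fibrotic skin of 20 weeks (F_20W) and of 6 weeks (F_6W), and normal skin (N). CD36 takes up fatty acids into cells, and CD90 is a surface protein of fibroblasts. The labels give neither the way fibrosis was made nor a time for normal skin, the age of the mice or the number of animals. P-values therefore measure the spread between these samples, which may be technical. The title of the series sets glycolysis against fatty acid oxidation in the upkeep of the skin matrix.

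Glycolysis turns glucose into pyruvate in the cytosol. Its lower part begins where aldolase cuts the 6-carbon sugar into triose phosphates and then recovers ATP and NADH from them. Lactate dehydrogenase makes lactate from pyruvate and returns the NAD+ that the pathway needs, so that it can run where oxygen is short. In skin, keratinocytes, immune cells and activated fibroblasts all use the pathway, and skeletal muscle under the skin holds much of it, partly as isozymes of its own. Whole skin mixes these cells, and in such samples fewer cells of a type and less RNA per cell cannot be told apart.

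Values are FPKM, fragments scaled to transcript length and to library size, and so levels of different genes can be set side by side. In every group Aldoa, Gapdh and Ldha were the 3 highest of the genes and Aldoc and Eno2 the lowest. In normal skin the mean level was 793 FPKM for Aldoa and 515 FPKM for Gapdh, but only 10.8 FPKM for Aldoc and 2.08 FPKM for Eno2. Neighbours in the order mostly overlapped between libraries. Pgam1 or Eno1, at the bottom of the abundant 8, stood clear of Aldoc in each group, and Aldoc stood clear of Eno2. Together the 10 genes took 0.748%, 0.540% and 0.517% of all FPKM in the treated libraries. The share was 0.765%, 0.710% and 0.704% in 20-week fibrotic skin, 0.638%, 0.550% and 0.672% at 6 weeks, and 0.540%, 0.279% and 0.572% in normal skin. These totals leave out short RNAs.

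As skin, all 12 libraries held dermal fibroblast RNA, with 364 to 1662 FPKM summed over a list of 12 genes, none at 0 in all libraries. Some libraries stood apart in other tissues. The 18 measured genes of a skeletal muscle fibre list, none at 0 in all libraries, summed to 177 to 4052 FPKM in treated skin, 1153 to 4868 FPKM in fibrotic skin at 20 weeks, 138 to 3248 FPKM at 6 weeks and 253 to 9986 FPKM in normal skin. Treated library 1, 6-week library 2 and normal library 2 were the low ones. Treated library 1 also differed from the other treated libraries in a list of 16 wound keratinocyte genes, none at 0 in all libraries. That list summed to 21030, 5841 and 2681 FPKM in treated skin, against 21479 to 32712 FPKM in 20-week fibrotic skin, 31114 to 50857 FPKM in 6-week skin and 850 to 1451 FPKM in normal skin. Results that rest on treated library 1 or normal library 2 are therefore also given without them.

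**Figure D1:**
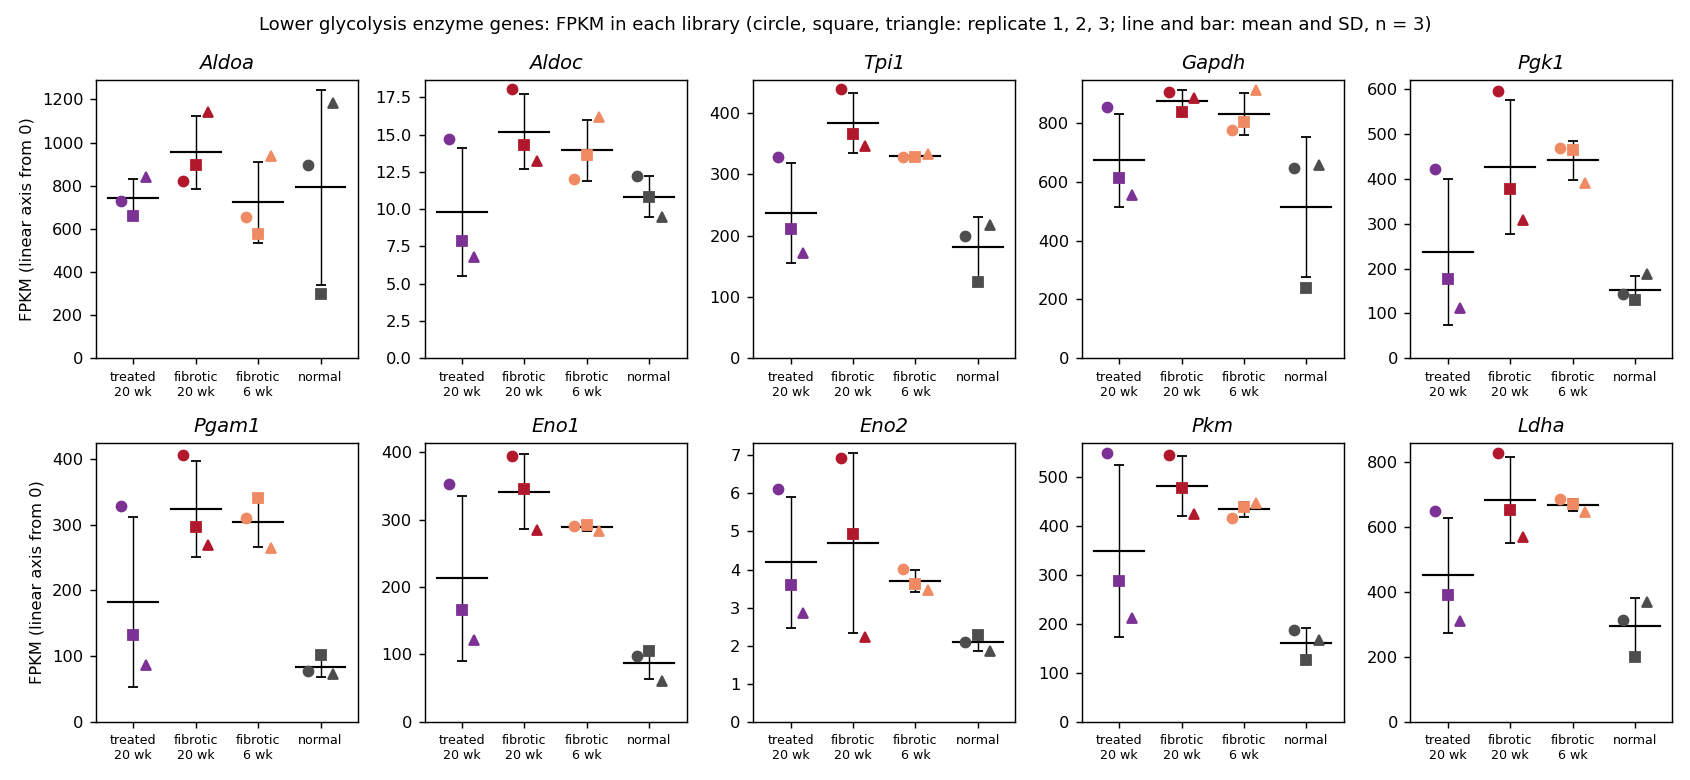
FPKM (vertical axis, linear from 0) of the 10 enzyme genes in each library, by group: treated 20-week, fibrotic 20-week, fibrotic 6-week and normal skin. Points are libraries, lines are group means and bars are SD (n = 3). In Pgam1 and Eno1 all 6 fibrotic libraries sit above all 3 normal ones, while treated library 1 sits with the fibrotic libraries.

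In fibrotic skin most of the lower pathway was higher than in normal skin, and at the same genes at both times. Tpi1, Pgk1, Pgam1, Eno1, Pkm and Ldha rose over normal skin at 6 weeks and at 20 weeks, and Eno1 and Pgam1 moved the most. Aldoa, Aldoc, Gapdh and Eno2 did not pass the test at either time. The counts were 6 of 10 called higher and 0 lower in both comparisons, at a Benjamini-Hochberg adjusted p under 0.05 in limma. At 6 weeks 17.6% of the 13761 genes tested were called higher, 21.7% lower and 39.3% in either direction. At 20 weeks the shares were 15.3%, 18.2% and 33.5%. The median log2 fold change of the 10 genes was 1.07 at 6 weeks and 1.18 at 20 weeks, against -0.05 and -0.04 over all genes tested. Both comparisons use the same normal libraries. At each time 8 of the 10 genes had groups that did not overlap, all higher in fibrotic skin, against 26.6% of all genes at 6 weeks and 25.1% at 20 weeks.

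Aldolase, the first step, has a muscle and general form, Aldoa, and a form best known from brain, Aldoc. Aldoa had 729, 658 and 839 FPKM in treated skin, 821, 897 and 1144 FPKM in fibrotic skin at 20 weeks, 653, 578 and 936 FPKM at 6 weeks, and 894, 300 and 1184 FPKM in normal skin. Normal library 2 was the lowest of all 12 and normal library 3 the highest, so every other group lay inside the normal range. The log2 fold change of Aldoa was 0.05 ± 0.42 (SE) at 6 weeks and 0.47 ± 0.42 at 20 weeks over normal skin, with adjusted p = 0.936 and 0.416. Without normal library 2 these values were -0.54 and -0.12, so Aldoa had no direction that held, and rescaling to equal totals also turned the 6-week value, to -0.29.

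Aldoc was lower by far, at 14.7, 7.88 and 6.80 FPKM in treated skin, 18.05, 14.3 and 13.2 FPKM in fibrotic skin at 20 weeks, 12.1, 13.6 and 16.2 FPKM at 6 weeks, and 12.2, 10.8 and 9.48 FPKM in normal skin. The 20-week fibrotic libraries lay above the normal ones, and the 6-week ones touched them. Over normal skin the log2 fold change was 0.33 ± 0.24 at 6 weeks and 0.45 ± 0.24 at 20 weeks (adjusted p = 0.284 and 0.167). Without treated library 1, which enters only the estimate of the spread, the 20-week value had an adjusted p = 0.0329.

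Triosephosphate isomerase, the product of Tpi1, converts the second triose into the usable one. Tpi1 had 328, 211 and 172 FPKM in treated skin, 438, 366 and 346 FPKM in fibrotic skin at 20 weeks, 328, 328 and 332 FPKM at 6 weeks, and 200, 124 and 218 FPKM in normal skin. The fibrotic libraries of each time lay above all normal libraries, and the 6-week libraries were nearly equal, with an SD of 2.45 FPKM around 330 FPKM. Tpi1 rose 1.87-fold at 6 weeks (log2 0.90 ± 0.25, adjusted p = 0.0180) and 2.17-fold at 20 weeks (log2 1.11 ± 0.25, adjusted p = 0.00867). The 6-week call was lost without normal library 2 or without 6-week library 2, where the adjusted p reached 0.0577.

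Gapdh encodes glyceraldehyde-3-phosphate dehydrogenase, the step that makes NADH, and is often taken as a constant reference gene. It had 852, 612 and 555 FPKM in treated skin, 904, 835 and 885 FPKM in fibrotic skin at 20 weeks, 777, 802 and 912 FPKM at 6 weeks, and 646, 240 and 658 FPKM in normal skin. All fibrotic libraries were above all normal ones, and normal library 2 was far below the other normal libraries. The log2 fold change over normal skin was 0.82 ± 0.34 at 6 weeks and 0.90 ± 0.34 at 20 weeks, short of the threshold at adjusted p = 0.0744 and 0.0618. Gapdh passed at 20 weeks without normal library 1 or 3 and at 6 weeks without normal library 3, with adjusted p down to 0.0455 at both times.

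Pgk1 encodes phosphoglycerate kinase, the first step that returns ATP. It had 421, 178 and 111 FPKM in treated skin, 594, 377 and 309 FPKM in fibrotic skin at 20 weeks, 467, 463 and 391 FPKM at 6 weeks, and 143, 129 and 187 FPKM in normal skin. The lowest fibrotic library was well above the highest normal one. Pgk1 rose 2.89-fold at 6 weeks (log2 1.53 ± 0.41, adjusted p = 0.0158) and 2.70-fold at 20 weeks (log2 1.44 ± 0.41, adjusted p = 0.0240). The 6-week call was lost without 6-week library 2, at an adjusted p of 0.0507. The 20-week call was lost without normal library 1 or 2 or 20-week fibrotic library 1 or 2, at an adjusted p of up to 0.0888.

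Pgam1 encodes phosphoglycerate mutase, which moves the phosphate group before the enolase step. Pgam1 had 329, 131 and 86.5 FPKM in treated skin, 407, 297 and 269 FPKM in fibrotic skin at 20 weeks, 310, 340 and 264 FPKM at 6 weeks, and 76.7, 102 and 72.0 FPKM in normal skin. Every fibrotic library was more than double the highest normal one. Pgam1 rose 3.64-fold at 6 weeks (log2 1.86 ± 0.40, adjusted p = 0.00544) and 3.83-fold at 20 weeks (log2 1.94 ± 0.40, adjusted p = 0.00565). Both calls held with any library left out.

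Enolase makes phosphoenolpyruvate. The general form, Eno1, had 352, 165 and 121 FPKM in treated skin, 394.5, 345 and 284 FPKM in fibrotic skin at 20 weeks, 290, 293 and 282 FPKM at 6 weeks, and 97.0, 105 and 59.7 FPKM in normal skin. Fibrotic and normal libraries were far apart. Eno1 rose 3.37-fold at 6 weeks (log2 1.75 ± 0.34, adjusted p = 0.00374) and 3.96-fold at 20 weeks (log2 1.98 ± 0.34, adjusted p = 0.00282), with both calls kept when any library was left out. The near-copy Gm5506 (Eno1b) may share reads with Eno1, so how the authors' counting split them is uncertain. Gm5506 moved alike, with log2 fold changes of 1.53 and 2.13 at 6 and 20 weeks (adjusted p = 0.00640 and 0.00190).

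The neuronal enolase Eno2 stood at 6.11, 3.59 and 2.85 FPKM in treated skin, 6.93, 4.94 and 2.22 FPKM in fibrotic skin at 20 weeks, 4.02, 3.61 and 3.47 FPKM at 6 weeks, and 2.10, 2.29 and 1.86 FPKM in normal skin. The 6-week libraries lay above the normal ones, while 20-week fibrotic library 3 fell inside the normal range. The log2 fold change was 0.61 ± 0.30 at 6 weeks and 0.79 ± 0.30 at 20 weeks, at adjusted p = 0.134 and 0.0677. Without 20-week fibrotic library 3 the adjusted p was 0.0492 and 0.0115, and without treated library 1 the 20-week value had an adjusted p = 0.0392. On this scale the added 1 FPKM understates the change of so low a gene.

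Pyruvate kinase makes pyruvate and a further ATP. Its gene Pkm gives the spliced forms M1 and M2, which a value per gene does not separate. Pkm had 547, 286 and 211 FPKM in treated skin, 545, 476 and 423 FPKM in fibrotic skin at 20 weeks, 416, 437 and 447 FPKM at 6 weeks, and 188, 127 and 167 FPKM in normal skin. All treated and all fibrotic libraries were above all normal ones. Pkm rose 2.72-fold at 6 weeks (log2 1.44 ± 0.29, adjusted p = 0.00434) and 3.01-fold at 20 weeks (log2 1.59 ± 0.29, adjusted p = 0.00360), and both calls held with any library left out.

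Ldha encodes the subunit of lactate dehydrogenase that is known to favour lactate production. It had 651, 392 and 312 FPKM in treated skin, 828, 653 and 570 FPKM in fibrotic skin at 20 weeks, 686, 671 and 648 FPKM at 6 weeks, and 315, 199 and 368 FPKM in normal skin. No fibrotic library came near the normal range. Ldha rose 2.34-fold at 6 weeks (log2 1.23 ± 0.29, adjusted p = 0.00844) and 2.37-fold at 20 weeks (log2 1.24 ± 0.29, adjusted p = 0.00949), with both calls kept when any library was left out.

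Between the fibrotic times no change was called. In fibrotic skin at 20 weeks over 6 weeks, 0 of 10 genes passed in limma, where 0.0363% of all genes were called. At an unadjusted p under 0.05 the count was also 0, and the share of all genes at that cut was not computed. The log2 fold changes ran from -0.10 for Pgk1 to 0.42 for Aldoa, with 95% intervals of -1.01 to 0.82 and -0.52 to 1.36. Tpi1 alone had groups that did not overlap, higher at 20 weeks, as did 17.9% of all genes.

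Genes whose products answer low oxygen carry short recognition letters of hypoxia-inducible factor, and several enzymes of this pathway are textbook targets of that factor. Promoters are shown for 3 of the called genes, chosen because they are among those with the most of these letters. The called genes moved together as a set, so their profiles do not set these 3 apart. RefSeq, in its table for GRCm38.p6 (mm10), lists 17 start sites for the 10 genes, and some of its windows overlap. The 250 bases before each start were searched on both strands for ACGTG and GCGTG. Capitals mark the matches, which read CACGT or CACGC where the match is on the other strand. Pgk1 lies at chrX:106187100-106203699, Pgam1 at chr19:41911871-41918665 and Ldha at chr7:46842274-46855627, all on the plus strand. The windows printed are chrX:106186850-106187099, chr19:41911621-41911870 and chr7:46845554-46845803, 5′ to 3′ on the plus strand.
Pgk1: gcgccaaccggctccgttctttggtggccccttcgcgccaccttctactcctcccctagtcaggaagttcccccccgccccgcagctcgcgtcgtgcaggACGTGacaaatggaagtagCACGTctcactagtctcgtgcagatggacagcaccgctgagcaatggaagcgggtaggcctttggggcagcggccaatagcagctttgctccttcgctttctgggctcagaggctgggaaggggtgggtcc
Pgam1: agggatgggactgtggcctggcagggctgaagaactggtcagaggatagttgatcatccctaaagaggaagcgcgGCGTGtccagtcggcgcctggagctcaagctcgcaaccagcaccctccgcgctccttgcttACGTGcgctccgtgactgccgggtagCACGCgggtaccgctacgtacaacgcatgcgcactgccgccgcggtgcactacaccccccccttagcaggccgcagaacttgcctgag
Ldha: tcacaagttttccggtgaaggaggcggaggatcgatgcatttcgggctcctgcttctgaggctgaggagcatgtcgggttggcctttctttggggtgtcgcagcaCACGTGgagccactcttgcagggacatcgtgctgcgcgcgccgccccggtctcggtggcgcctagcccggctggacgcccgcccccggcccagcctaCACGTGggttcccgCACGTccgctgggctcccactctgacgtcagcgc
The matches begin 150 and 131 bases before the start in Pgk1 and 175, 114 and 88 bases before it in Pgam1. In Ldha 5 matches fall at 3 places, because CACGTG reads ACGTG on each strand. The other Ldha window, not printed, held 1 match, to GCGTG. Of the 17 windows, 13 (76.5%) held ACGTG or GCGTG, against 38.6% of all 32851 windows in the table. Overlapping windows of Aldoa and of Eno1 hold the same matches, so this share counts some sites more than once. By gene, 8 of the 10 had a match in at least 1 window. Windows of the called Tpi1 and of Eno2, which was not called, held none. The window of Gapdh held 2 matches, and windows of Aldoa and Aldoc also held matches, though these genes were not called. The letters thus did not follow the calls gene by gene. GGGCGG, the letters of a GC box, was in 9 of 17 windows (52.9%), against 32.7% of all, again with overlapping windows counted apart. A match is a description of the letters, not a bound site.

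In treated skin the mean level of 8 of the 10 genes lay between those of 20-week fibrotic and normal skin, and that of Aldoa and Aldoc lay below both, but the treated libraries did not lie together. Over normal skin Eno1 and Pkm were called higher, 2 of 10 genes, where 7.57% of all genes were called higher, 13.2% lower and 20.7% in either direction. Eno1 averaged 213 ± 123 FPKM in treated skin and 87.2 ± 24.1 FPKM in normal skin (SD, n = 3 each). Its log2 fold change was 1.17 with an SE of 0.34 (adjusted p = 0.0379). Pkm averaged 348 ± 176 FPKM in treated skin and 161 ± 31.1 FPKM in normal skin, a log2 fold change of 1.01 ± 0.29 (adjusted p = 0.0351). Eno1, Eno2 and Pkm had groups that did not overlap, higher in treated skin, against 14.0% of all genes. The other 8 genes had log2 fold changes from -0.20 for Aldoc to 0.90 for Pgam1. Both calls were unstable: the count was 0 without normal library 2 or 3, 6-week library 1 or 2, 20-week fibrotic library 2 or treated library 2, and 0 in a fit of the 6 libraries compared or without the filter on low values. Without treated library 1, Pkm alone was called, where 8.55% of all genes were called higher and 22.5% in either direction. Pkm then had a log2 fold change of 0.63 (adjusted p = 0.0413) and Eno1 of 0.73 (adjusted p = 0.0538).

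Against 20-week fibrotic skin, 0 of 10 genes were called in treated skin by limma. Of all genes 15.3% were called, 4.45% higher and 10.9% lower. That background was itself unstable: 2108 genes were called with all libraries, 341 without 20-week fibrotic library 1, 959 without library 2 and 3 without library 3 of that group, 532 and 297 without treated library 2 and 3, and 3 in a fit of the 6 libraries compared. All 10 fold changes were below 0, with a median log2 of -0.65 against -0.00 over all genes, although that of Eno2, -0.09, turned to 0.11 on rescaling to equal totals. At an unadjusted p under 0.05 there were 6 genes: Aldoc, Tpi1, Pgk1, Pgam1, Eno1 and Ldha. The share of all genes at that looser cut was not computed, and is no smaller than the 15.3% called after adjustment. This count therefore has no background to be set against. Tpi1 came closest, at 237 ± 81.5 FPKM in treated skin and 383 ± 48.5 FPKM in fibrotic skin, a log2 fold change of -0.74 ± 0.25 (adjusted p = 0.0711). It was the only one of the 10 whose groups did not overlap, as 19.2% of all genes did not with the treated libraries lower. The largest differences were those of Pgam1, -1.03 ± 0.40 (adjusted p = 0.0970), and Pgk1, -1.01 ± 0.41 (adjusted p = 0.114).

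These values depended on single treated libraries. The median log2 fold change of the 10 genes was -0.95 without treated library 1, -0.56 without library 2 and -0.45 without library 3. Without library 3, Pgam1 was at -0.61 and Pgk1 at -0.58, and no gene of the 10 was called. Treated library 1 lay inside the range of the 20-week fibrotic libraries for 7 of the 10 genes (Aldoc, Gapdh, Pgk1, Pgam1, Eno1, Eno2 and Ldha). Treated library 2 lay there for Eno2 only, and inside the normal range for Aldoa, Tpi1, Gapdh and Pgk1. Treated library 3 lay inside the normal range for Aldoa, Tpi1, Gapdh, Pgam1 and Ldha, inside the 20-week fibrotic range for Aldoa and Eno2, and for Pgk1 below every other library. The SD of Pgam1 was 70.8% of the mean in treated skin, against 22.5% in fibrotic skin at 20 weeks, and that of Pgk1 68.9%, against 34.9%.

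Without treated library 1, 7 of the 10 genes were called lower in treated than in fibrotic skin, while 20.2% of all genes were called lower and 37.9% in either direction. The log2 fold changes were then -1.57 for Pgam1 (adjusted p = 0.00123), -1.54 for Pgk1 (0.00339), -1.25 for Eno1 (0.00369), -0.998 for Tpi1 (0.00706), -0.96 for Pkm (0.00422), -0.95 for Aldoc (0.00219) and -0.95 for Ldha (0.0159), again as adjusted p from limma. Gapdh, at -0.58, Aldoa and Eno2 did not pass. Treated library 1 was singled out on these same values, as the treated library most like fibrotic skin. Leaving it out therefore favours a wider difference and a smaller spread, and the 7 calls are no independent support for a fall. With all 3 treated libraries kept and the muscle list added to the fit after the data were seen, 3 genes were called lower, Pgam1, Eno1 and Aldoc, where 14.6% of all genes were called lower and 23.1% in either direction. Nothing in the labels marks treated library 1 as different, and the wound keratinocyte level given above moves with it. The part of that level in these values was not tested.

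**Figure D2:**
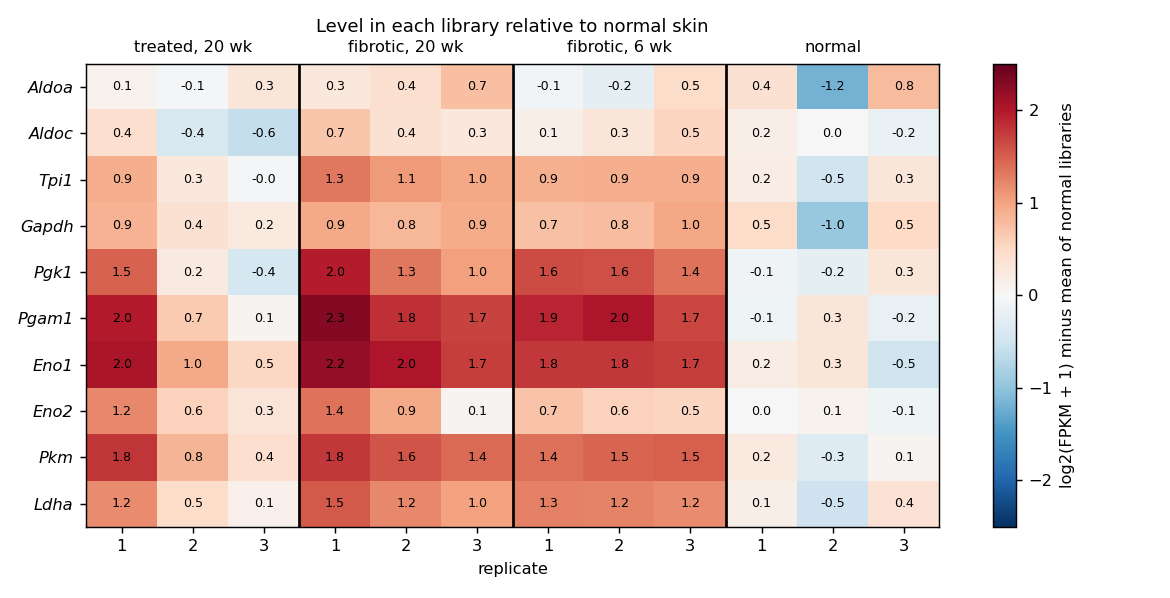
Level of each gene (rows) in each library (columns, by group and replicate) as log2(FPKM + 1) minus the mean of the 3 normal libraries. Red is higher and blue lower than normal skin. Treated library 1 resembles the fibrotic columns, treated libraries 2 and 3 are paler, and Aldoa follows no group.

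**Figure D3:**
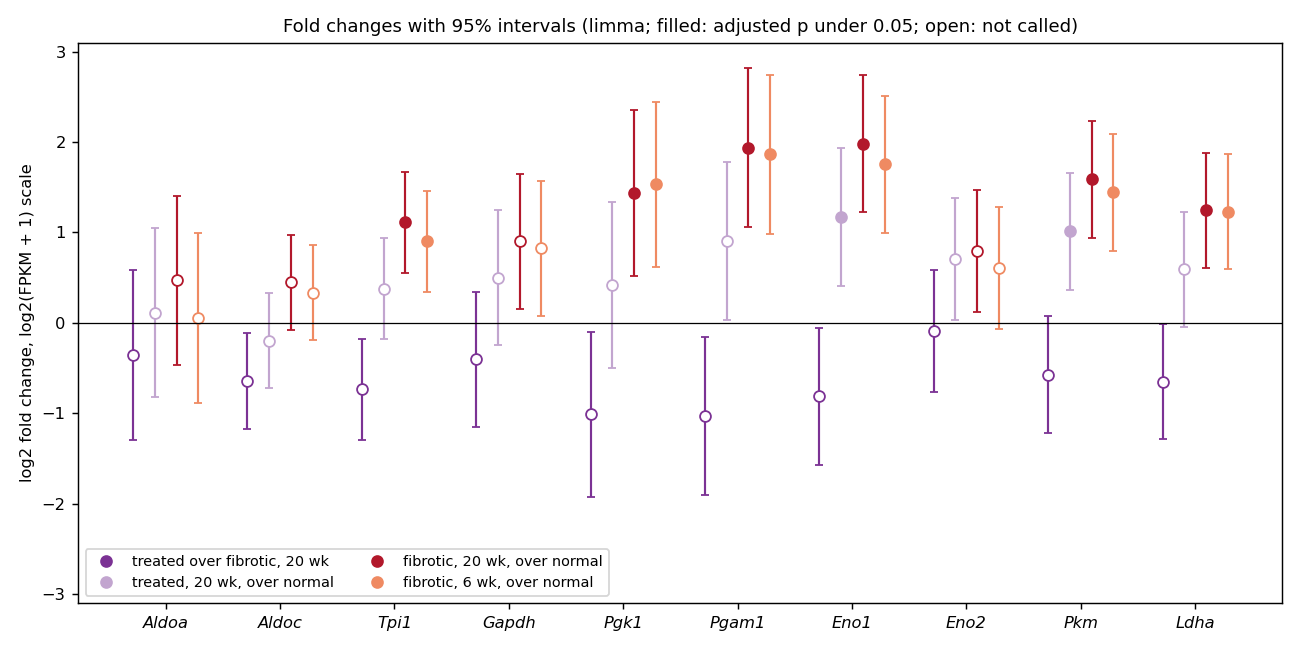
Log2 fold changes of the 10 genes (horizontal axis) with 95% intervals from limma, on the log2(FPKM + 1) scale, for treated over fibrotic skin at 20 weeks, treated over normal, 20-week fibrotic over normal and 6-week fibrotic over normal. Filled points are called. The 6 called genes of fibrotic skin lie between 0.90 and 1.98, and no treated-over-fibrotic point is filled.

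Several steps have other isozymes, among them Ldhb at the last step. Ldhb, whose subunit is known to favour lactate use and is abundant in heart, had 25.9, 72.9 and 70.1 FPKM in treated skin, 23.8, 31.4 and 27.3 FPKM in fibrotic skin at 20 weeks, 20.4, 14.5 and 23.3 FPKM at 6 weeks, and 92.5, 67.5 and 89.2 FPKM in normal skin. Fibrotic libraries were low, normal libraries high, and treated library 1 again stood with the fibrotic ones. Ldhb fell by 2.06 on the log2 scale at 6 weeks (adjusted p = 0.00184) and by 1.56 at 20 weeks (adjusted p = 0.00828) against normal skin. In treated skin its log2 fold change was -0.68 over normal (adjusted p = 0.182) and 0.88 over fibrotic skin (adjusted p = 0.105).

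Ldha made up 96.2%, 84.3% and 81.6% of the summed Ldha and Ldhb FPKM in treated skin. The share was 97.2%, 95.4% and 95.4% in 20-week fibrotic skin, 97.1%, 97.9% and 96.5% at 6 weeks, and 77.3%, 74.7% and 80.5% in normal skin. Fibrotic libraries of both times lay above all normal ones, and treated libraries 2 and 3 lay just above the normal range. The share averaged 97.2% in 6-week and 77.5% in normal skin, with p = 0.10 in a 2-sided exact permutation test, the smallest that 3 against 3 libraries allow. The exact p was also 0.10 for 20-week fibrotic over normal and treated over normal skin, and 0.30 for treated over 20-week fibrotic and for 20 over 6 weeks. Over these 5 comparisons the adjusted exact p was 0.17 at the lowest. The share is of RNA and says nothing of the protein tetramers.

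Eno3, the muscle enolase, and Pgam2, the muscle mutase, had no group pattern. Eno3 had 7.45, 98.9 and 141 FPKM in treated skin, 43.0, 87.7 and 172 FPKM in fibrotic skin at 20 weeks, 54.7, 5.92 and 129 FPKM at 6 weeks, and 233, 12.4 and 320 FPKM in normal skin. It was low in exactly the libraries with little muscle RNA. The share of Eno1 among Eno1, Eno2 and Eno3 ran from 15.7% to 87.7% within normal skin, and that of Pgam1 among Pgam1 and Pgam2 from 40.4% to 95.6%. Gapdhs, the sperm form of Gapdh, was near the floor at 0.14 to 2.13 FPKM. It was called higher at 6 and 20 weeks and lower in treated than in fibrotic skin (log2 0.47, 1.06 and -0.73). Gapdhs passed the filter on low values only through the 20-week fibrotic libraries, at 1.29, 1.52 and 2.13 FPKM. Its calls at 20 weeks and in treated over fibrotic skin rest on that selection, so no weight is put on them. The 6-week call was lost without any 1 of 9 libraries, and the treated call without any 1 of 4, among them 20-week fibrotic library 3. Pgk2, the testis form of phosphoglycerate kinase, was listed at 0 in all 12 libraries.

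**Figure D4:**
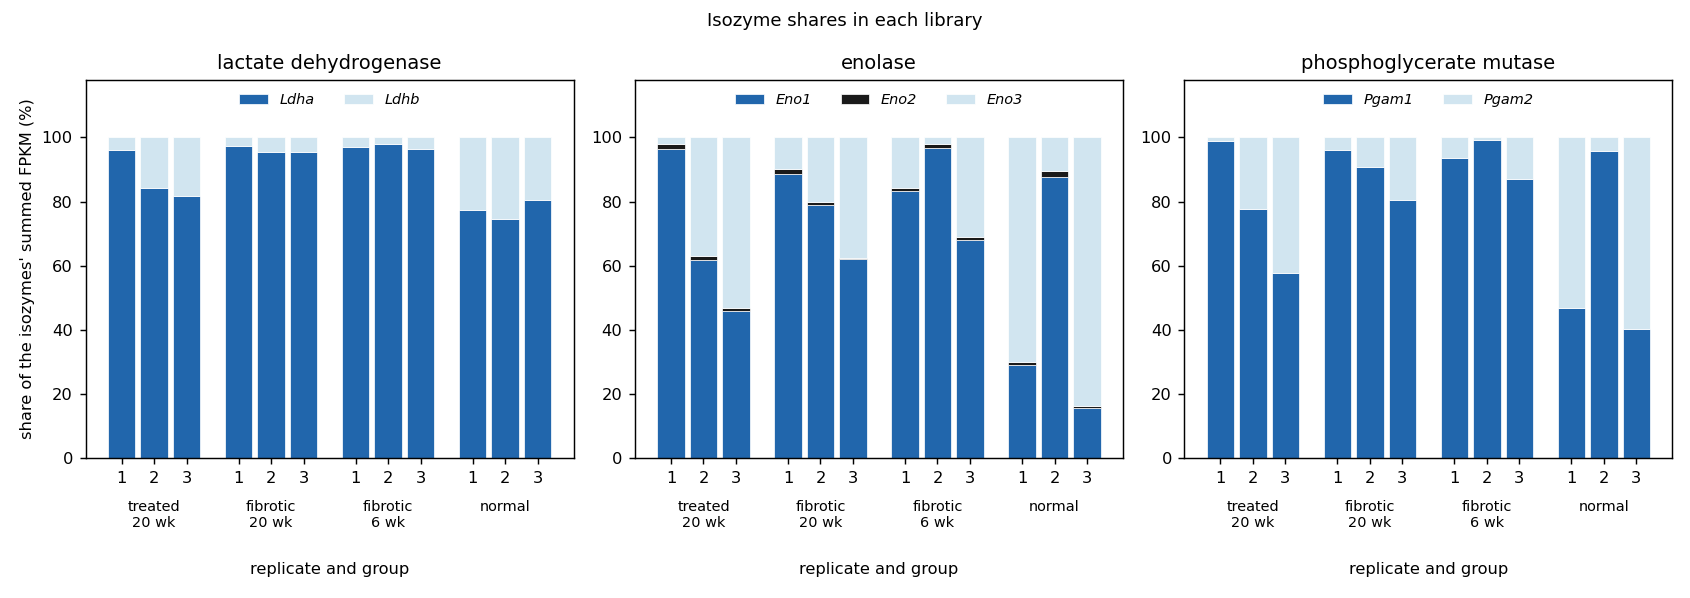
Share of each isozyme in the summed FPKM of its step (vertical axis, %) for lactate dehydrogenase, enolase and phosphoglycerate mutase, in each library by group. The Ldha share is 95.4% or more in all 6 fibrotic libraries and 80.5% or less in the normal ones, while the enolase and mutase shares vary within each group.

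Muscle-list levels are set here beside those of the enzymes. In each group the library with the highest muscle sum also had the highest Aldoa level. The libraries lowest in that list within their groups were treated library 1, 20-week fibrotic library 1, 6-week library 2 and normal library 2, at 177, 1153, 138 and 253 FPKM. The 20-week fibrotic one was thus not low on the scale of the others. Aldoa in these libraries had 729, 821, 578 and 300 FPKM, in that order.
With the muscle list as a covariate, 2 of the 10 genes were called higher over normal skin in treated skin, where 7.52% of all genes were called higher and 20.8% in either direction. The count was 6 at 6 weeks, where 16.0% of all genes were called higher and 36.0% in either direction. At 20 weeks it was 7, where the shares were 17.0% and 37.7%. The Aldoa value at 6 weeks was then 0.31 ± 0.30 (adjusted p = 0.439).

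**Figure D5:**
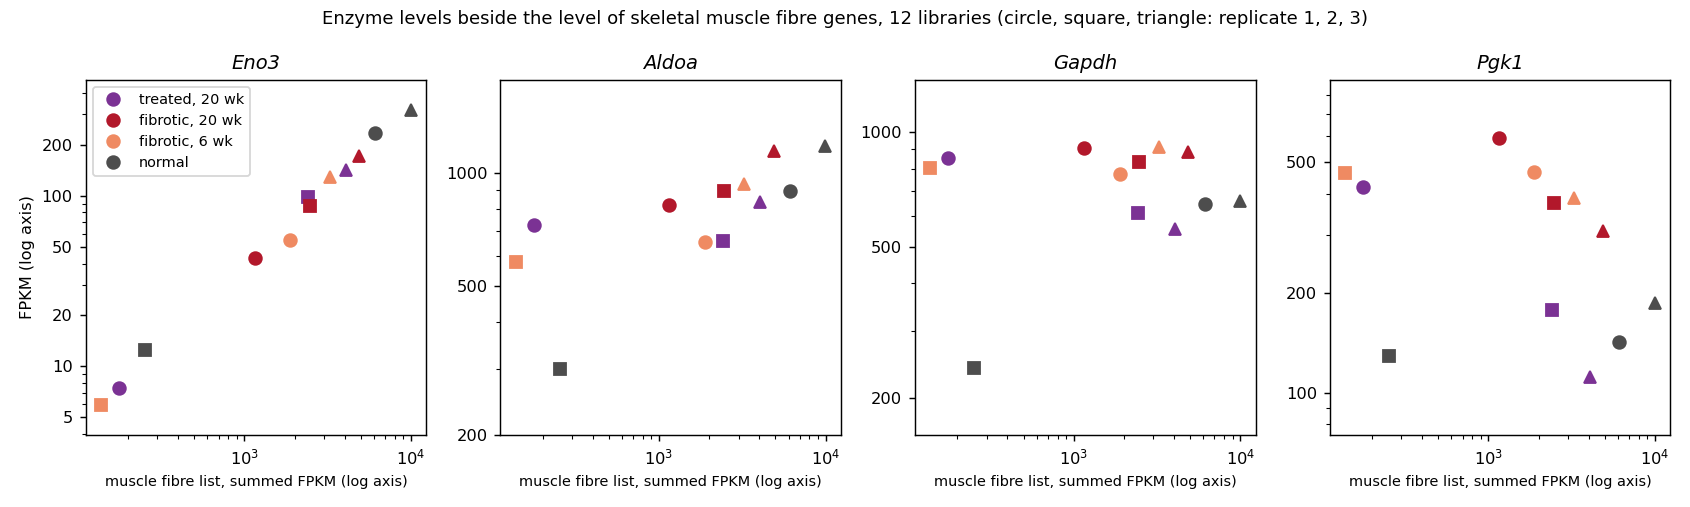
FPKM of Eno3, Aldoa, Gapdh and Pgk1 (vertical axes, log) against the summed FPKM of the skeletal muscle fibre list (horizontal axes, log) in 12 libraries, coloured by group. Eno3 runs along the muscle level in all groups. Normal library 2, at 253 FPKM of muscle genes, is the lowest point for Aldoa and Gapdh.

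The genes differed in how alike their profiles were over the 12 libraries. As a description, with group differences, tissue make-up and scaling shared by all points, the 15 pairs among the 6 called genes had Pearson correlations of 0.84 to 0.98. The closest were Tpi1 with Ldha at 0.98 and Pgam1 with Eno1 at 0.97. Aldoa stood outside, with correlations from -0.06 with Eno2 to 0.73 with Gapdh. Outside the pathway's lower part, the 8 genes most like the mean of the 10 were Ptges, Cox7a2, Gjb1, Hk2, Pla2g4e, Bhlhe40, Stom and Eif6, with correlations from 0.97 to 0.95 over 12 libraries. Hk2, the inducible hexokinase, had 41.8, 14.5 and 13.8 FPKM in treated skin, 39.6, 30.0 and 21.4 FPKM in fibrotic skin at 20 weeks, 29.2, 25.9 and 24.0 FPKM at 6 weeks, and 9.66, 6.90 and 13.2 FPKM in normal skin.

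Genes of the upper pathway were called in both directions. Of 13 tested genes from hexokinase to the phosphofructokinase regulators, 4 were called higher and 1 lower at 6 weeks, and 7 higher and 2 lower at 20 weeks, where the shares of all genes were those given above, 17.6% and 21.7% at 6 weeks and 15.3% and 18.2% at 20 weeks. Hk2 (log2 1.36 and 1.52), Pfkl, the liver-type phosphofructokinase (1.18 and 1.64), Pfkfb3 (0.54 and 0.87) and Pfkfb4 (1.41 and 1.85) rose at both times, and Pfkfb2 (-0.54 and -0.51) fell at both. The regulators Pfkfb2 to Pfkfb4 set the level of fructose 2,6-bisphosphate. In treated skin 2 of the 13 were called higher and 1 lower over normal skin, against 7.57% and 13.2% of all genes. Over fibrotic skin 0 were called by limma, against 15.3% of all genes in either direction. The glucose transporter Slc2a1 rose at 6 and 20 weeks (log2 1.25 and 1.57), as did the lactate transporter Slc16a1 (1.39 and 1.79). The 6-week calls of Hk2, Pfkfb3 and Slc2a1 were lost without 6-week library 2 among others, and the 20-week call of Hk2 without normal library 2 or 20-week fibrotic library 1.

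Among 17 genes of the hypoxia response, 8 were called higher and 1 lower at 6 weeks, and 13 higher and 1 lower at 20 weeks. Of all genes, 17.6% were called higher and 21.7% lower at 6 weeks, and 15.3% and 18.2% at 20 weeks. In treated over fibrotic skin 0 of the 17 were called higher and 4 lower, against 4.45% and 10.9% of all genes. Those 4 were Hif1a, a subunit of the factor itself (log2 -0.78, adjusted p = 0.0347), Epas1, its paralog (-0.70, adjusted p = 0.0380), Bnip3, a mitophagy gene (-1.07, adjusted p = 0.0151), and Higd1a, a mitochondrial gene (-1.39, adjusted p = 0.0366). None of the 4 calls was kept without 20-week fibrotic library 3, where Bnip3 had an adjusted p = 0.0702, or in a fit of the 6 libraries compared. Of 11 calls in the 5 metabolic and hypoxia lists in this comparison, 0 were kept under either setting by limma. The summed hypoxia list was 1174, 631 and 598 FPKM in treated skin, 1602, 1288 and 1156 FPKM in fibrotic skin at 20 weeks, 891, 999 and 1008 FPKM at 6 weeks, and 538, 551 and 450 FPKM in normal skin. Treated library 1 was again with the fibrotic libraries.

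Marker genes of some other cell types were also called higher in fibrotic skin. The share of all genes called higher was 17.6% at 6 weeks and 15.3% at 20 weeks. Other lists did not rise as a whole by the number of calls. Of 12 basal and spinous keratinocyte genes 3 were called higher and 4 lower at 6 weeks, and 1 and 4 at 20 weeks. The sum of that list was nevertheless higher in all 6-week libraries than in any normal one. It was 10375 to 26697 FPKM in treated skin and 9702 to 28263 FPKM in 20-week fibrotic skin. At 6 weeks it was 33722 to 44220 FPKM, against 13287 to 14995 FPKM in normal skin. Of 12 dermal fibroblast genes 3 were called higher and 0 lower at 6 weeks, and 2 and 3 at 20 weeks. No tested gene of the muscle fibre, adipocyte, erythrocyte, endothelium or smooth muscle lists was called at either time. Of the wound keratinocyte list 15 of 16 genes were called higher at 6 weeks and 14 at 20 weeks. Of 15 hair shaft genes 13 were called higher at 6 weeks and 0 at 20 weeks, by limma. Their sum was 325 to 4843 FPKM in treated skin, 106 to 268 FPKM in 20-week and 1088 to 1460 FPKM in 6-week fibrotic skin, and 14.9 to 387 FPKM in normal skin. Of 5 tested neutrophil genes 4 were called higher at 6 weeks and 3 at 20 weeks, and the sum of that list was 32.3 to 1245 FPKM in treated skin, 396 to 3260 FPKM in 20-week and 1338 to 4064 FPKM in 6-week fibrotic skin, and 20.0 to 67.6 FPKM in normal skin. S100a8 and S100a9, the highest genes of the neutrophil list, also stand in the wound keratinocyte list, so these lists are not separate. Of 12 macrophage genes 11 were called higher at 6 weeks and 7 at 20 weeks, and their sum was 275 to 367 FPKM in treated skin, 463 to 498 FPKM in 20-week and 427 to 999 FPKM in 6-week fibrotic skin, and 129 to 254 FPKM in normal skin. Of 18 cell cycle genes 13 were called higher at 6 weeks and 1 at 20 weeks, though 17 had fold changes above 0 at 20 weeks. At 20 over 6 weeks all 18 were below 0 and 0 were called, against 0.0363% of all genes called. The cell cycle sum was 234 to 482 FPKM in treated skin, 247 to 465 FPKM in 20-week and 420 to 560 FPKM in 6-week fibrotic skin, and 237 to 279 FPKM in normal skin. No gene of these lists was at 0 in all libraries, but that check misses a gene near 0 in a single group. In the basal and spinous list the lowest log2 fold change was -10.2 at 20 weeks over normal skin and -13.8 at 20 over 6 weeks. In treated over 20-week fibrotic skin the highest was 11.6. Values of this size require a level near 0 FPKM in 20-week fibrotic skin. Whether RNA was lost or not quantified was not tested, so the 20-week count and sum of that list are uncertain. The part of these cells in the enzyme levels was not tested.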

How the data were processed

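RNA of 12 macrodissected skin samples was selected for poly-A tails, made into stranded libraries and sequenced in pairs, per the labels. The authors deposited a table of FPKM values per gene for each library. The submitters' processing notes name mm10, cutadapt 1.7.1, Bowtie2 2.2.3, TopHat2 2.0.13 and Cufflinks 2.2.1. Neither settings nor annotation are given in the sources used here. FPKM hides the number of reads, so depth is unknown and counting error cannot be stated. Pools of libraries are not labelled, so no batch could be tested, and no pair of libraries was identical.

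Groups came from the labels. Values were analysed as log2(FPKM + 1), so fold changes of low genes are understated. A gene was tested if 3 or more libraries had 1 FPKM or more, which left 13761 genes. These were fitted in limma 3.58.1 (R 4.3.3) over all 12 libraries, with group means and a variance that follows intensity. This pools the spread, although treated libraries spread more. Tests were 2-sided, with Benjamini-Hochberg adjusted p over all genes tested in each of 5 comparisons, and called under 0.05. The script was tested on simulated data. The Ldha share was compared with a 2-sided exact permutation test. Comparisons share groups, so they are not independent.

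The 10 genes and the lists were chosen with earlier results of these data known. Named are the 10 genes, their isozymes, members of the metabolic lists, up to 3 genes of each marker list, and the 8 genes most correlated with the mean z-score of the 10. Other names were chosen after their values were seen. Coordinates and promoters are RefSeq, GRCm38.p6. Alternatives were another pseudocount, filters, scalings, a fit of 6 libraries, no trend, a replicate block, a 2-fold threshold, each library left out and, chosen after seeing the data, a muscle covariate and 2 libraries left out together.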

Additional observations from a re-analysis of the deposited data

How the results depend on the processing

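The counts over normal skin at 6 and 20 weeks stayed within 1.5 times of 6 under every alternative, with 4 to 7 and 5 to 8 when each library was left out. The count for treated over normal skin was 2, and 0 without the filter on low values, 0 in a fit of the 6 libraries, 1 without normal library 2 and treated library 1 together, and 0 to 3 when each library was left out. The count for treated over fibrotic skin was 0, and 3 with the muscle covariate, 8 without those 2 libraries, and 0 to 7 when each library was left out. For 20 over 6 weeks it was 0 throughout. The number of all genes called moved more: 2855 in treated over normal skin became 138 in a fit of the 6 libraries and 904 without normal library 3, and 2108 in treated over fibrotic skin became 3 in such a fit. With each library left out it ran from 3 to 5216 in treated over fibrotic skin, from 3502 to 6551 at 6 weeks and from 3028 to 5812 at 20 weeks over normal. Of the calls in the 5 metabolic and hypoxia lists, 14 of 29 at 6 weeks, 21 of 38 at 20 weeks, 8 of 13 in treated over normal and 0 of 11 in treated over fibrotic skin were kept with any library left out. In fits of the 6 libraries 28, 36, 0 and 0 were kept.

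Nothing in the labels says that the replicate numbers pair the samples. Correlations of deviations from the group means ran from -0.35 to 0.29 for the same number and from -0.31 to 0.42 for other numbers. With 3 libraries a group these ranges cannot exclude a pairing. With the number as a replicate block the counts were 6, 7, 2, 0 and 0 for 6 weeks over normal, 20 weeks over normal, treated over normal, treated over fibrotic, and 20 over 6 weeks, where Eno2 was gained at 20 weeks (adjusted p = 0.0330).

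Rescaling to equal totals without muscle, hair shaft and wound genes put the median of all genes at -0.34 at 6 weeks and -0.28 at 20 weeks over normal, where it had been -0.05 and -0.04, and at 0.21 in treated over fibrotic skin, where it had been -0.00. The medians of the 10 enzyme genes were then 0.73, 0.89 and -0.40. It moved the higher share of all calls from 44.9% to 18.6%, 45.6% to 19.6% and 29.0% to 68.8%. Scaling by the median of ratios moved that share from 36.5% to 47.3% in treated over normal skin.

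Of the single-gene values, 25 changed sign, all of them not called. On rescaling to equal totals these were Aldoa at 6 weeks over normal (-0.29) and Eno2 in treated over fibrotic skin (0.11). Without normal library 2 and treated library 1, Aldoa was -0.54 at 6 weeks, -0.12 at 20 weeks and -0.47 in treated over normal skin, where Tpi1 was -0.13, Gapdh -0.16 and Pgk1 -0.22. With the muscle covariate, Gapdh was -0.033 and Pgk1 0.063 at 20 over 6 weeks. With each library left out, Aldoa ran from -0.54 to 0.45 at 6 weeks, from -0.12 to 0.87 at 20 weeks and from -0.48 to 0.51 in treated over normal skin, where Pgk1 ran from -0.10 to 0.85 and Aldoc from -0.50 to 0.0021. Eno2 ran from -0.45 to 0.20 in treated over fibrotic skin. At 20 over 6 weeks the ranges were -0.0074 to 0.22 for Aldoc, -0.10 to 0.20 for Pgam1, -0.10 to 0.55 for Eno2, -0.13 to 0.14 for Ldha and -0.36 to 0.11 for Pgk1. The cause of these changes was not tested.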

Other observations

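The pentose phosphate pathway, which leaves glycolysis at glucose 6-phosphate and returns to it above the Gapdh step, was listed together with gluconeogenesis. Of 12 tested genes, 5 were called higher and 0 lower in treated over normal skin, where 7.57% of all genes were called higher and 13.2% lower. Those 5 were G6pdx, Pgls, Pgd, Tkt and Taldo1, all of the pentose phosphate pathway, and none was called in a fit of the 6 libraries compared. In treated over fibrotic skin 2 were called higher and 1 lower, where the shares of all genes were 4.45% and 10.9%. The transketolase gene Tkt had 47.5, 68.6 and 101 FPKM in treated skin, 33.7, 34.96 and 35.3 FPKM in fibrotic skin at 20 weeks, 32.1, 33.1 and 35.6 FPKM at 6 weeks, and 50.3, 36.1 and 25.2 FPKM in normal skin. All treated libraries were above all fibrotic ones, and the log2 fold change was 0.98 (adjusted p = 0.0383). Over normal skin it was 0.93 (adjusted p = 0.0364), with treated library 1 inside the normal range. Each of these 2 calls was lost when any 1 of 9 libraries was left out. G6pdx, the entry enzyme, rose by 1.35 at 6 weeks and 1.303 at 20 weeks on the log2 scale, and was lower in treated than in fibrotic skin, at -0.62 (adjusted p = 0.0223). The Tkt and G6pdx calls over fibrotic skin were not kept without 20-week fibrotic library 3, at adjusted p = 0.0996 and 0.0769, nor in a fit of the 6 libraries.

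Of 21 genes of glucose and lactate transport and pyruvate fate, 3 were called higher and 5 lower at 6 weeks, or 23.8% lower, near the 21.7% of all genes called lower. The lower ones were Pdha1, a subunit of pyruvate dehydrogenase (log2 -0.66), Pdk2 and Pdk4, kinases that restrain it (-1.79 and -2.88), Pdp1, a phosphatase that releases it (-0.59), and Pcx, pyruvate carboxylase (-1.18). All 5 calls were lost without 6-week library 1 or 2. Pdk4 had 3.82, 3.21 and 15.9 FPKM at 6 weeks, against 78.9, 11.7 and 133.7 FPKM in normal skin, where library 2, the lowest for Pdk4, was also the lowest in the muscle list. Pcx was then higher in treated than in fibrotic skin, with 13.6, 25.6 and 54.2 FPKM in treated skin, against 7.28, 9.65 and 7.77 FPKM in fibrotic skin at 20 weeks (log2 1.599, adjusted p = 0.0323), a call not kept without 20-week fibrotic library 3 (adjusted p = 0.0960). The adipocyte list, whose cells express Pcx strongly, summed to 1484, 4231 and 8262 FPKM in treated skin, against 1567, 2338 and 2575 FPKM in fibrotic skin. Its part in the Pcx values was not tested.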
